A study of Homo sapiens with 6 samples.

Results

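Genes of the amino acid transporter families SLC1, SLC3, SLC6, SLC7, SLC36, SLC38 and SLC43 were chosen by symbol, as an SLC1A, SLC3A, SLC6A, SLC7A, SLC36A, SLC38A or SLC43A stem followed by a number. The human gene table holds 82 symbols of this pattern, of which 61 are protein-coding, 11 are long non-coding RNAs and 10 are pseudogenes. Only 2 of them stood among the 14884 genes that could be named on the arrays, SLC38A12 and SLC7A11-AS1. SLC38A12 is 1 of 12 protein-coding SLC38 genes in that table. SLC7A11-AS1 is not a transporter gene: it is a long non-coding RNA named for its antisense position to SLC7A11. The other 60 protein-coding genes were not analysed here, and 37518 of the 53616 features of the arrays carried no symbol here. The values below therefore describe SLC38A12 and SLC7A11-AS1 and not the transporter families as a group.

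SW620, a colorectal cancer line from a lymph node metastasis, was compared with SW480, a line from a primary tumour. Both were kept as spheres without serum, in medium to which growth factors were added, and 3 arrays were run per line. The design text calls the 3 arrays technical replicates, so every p-value here measures the spread between such arrays and not between separate cultures. The series asks how the tumour-initiating cells in the spheres differ between the lines.

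Amino acid transporters carry amino acids across the plasma membrane and the membranes of lysosomes. SLC1 and SLC6 proteins use the sodium gradient, SLC7 light chains pair with the heavy chains SLC3A1 or SLC3A2 and exchange amino acids, SLC36 proteins use protons, SLC38 proteins carry small neutral amino acids such as glutamine, and SLC43 proteins let large neutral amino acids through along their gradient. SLC7A11 encodes xCT, the light chain of the cystine and glutamate exchanger, which brings in cystine for glutathione synthesis. SLC38A12 was earlier named TMEM104, and its present symbol places it in the SLC38 family.

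The start of SLC38A12 is shown because it is the single protein-coding gene of the families that was measured. The gene lies on chromosome 17 (GRCh38.p14, plus strand), and NAT9 starts next to it on the minus strand. The 153 bases between these divergent starts, at chr17:74776346-74776498, are given from RefSeq, with capitals at CCAAT, a promoter motif bound by the factor NF-Y.

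SLC38A12: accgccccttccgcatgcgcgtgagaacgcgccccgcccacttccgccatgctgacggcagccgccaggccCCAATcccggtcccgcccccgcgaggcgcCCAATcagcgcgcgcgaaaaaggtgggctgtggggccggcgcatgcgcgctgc

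CCAAT occurs there from base 82 to base 78 and from base 53 to base 49 before the start. This motif was looked for after the sequence had been seen. On either strand, 34.6% of 35116 promoter windows of 300 bases hold it. The window of SLC38A12 held neither the core of the C/EBP-ATF response element, TGATGNAA, nor that of the antioxidant response element, TGACNNNGC, nor the E-box CACGTG, which 3.62%, 13.3% and 7.26% of all windows hold on either strand. A match is a description of the letters and not a bound site. For SLC7A11-AS1 no promoter is shown.

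The deposited levels are on a log2 scale, made with RMA, which subtracts background and equalises arrays. Levels ran from 1.99 to 13.9, with a median feature of 4.06. Across features, r was 0.988 to 0.992 within a line and 0.963 to 0.965 between lines. The epithelial markers KRT18, EPCAM and VIL1 were bright, while KRT20 and CDX1 had means of 4.03 and 3.82, near the median feature. Of 8 epithelial markers 3 rose (VIL1, KRT19 and KRT8) and 1 fell (CDX2) at an adjusted p below 0.05 (limma). By that threshold 16.0% of all genes rose, 19.5% fell and 35.6% passed in either direction. Of markers of other cells, LUM, a matrix proteoglycan of fibroblasts, rose (7.95 ± 0.12 in SW620 and 4.73 ± 0.39 in SW480, SD, n = 3 each). DCN did not pass, and its means of 3.26 in SW620 and 3.09 in SW480 lay below the 25th percentile feature (3.52). The summed linear level of these 2 fibroblast markers, most of it from LUM, was 240 to 281 in SW620 and 29.6 to 44.2 in SW480. Of 3 leukocyte markers 1 fell (LAPTM5), while CD14 and CD53, with means of 3.65 and 3.61, did not pass. The 3 had a summed level of 79.9 to 85.7 in SW620 and 98.3 to 102.8 in SW480. None of 4 endothelial markers passed. The part of these markers of other cells in the results below was not tested.

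SLC38A12 was bright in both lines, and its difference between them was small and did not pass the test. Its levels were 7.37, 7.08 and 7.17 on the SW620 arrays, against 6.96, 7.02 and 6.98 on the SW480 arrays. The lines did not overlap, but the gap between them was 0.0599, smaller than the range within SW620, 0.287. The SW620 arrays were spread more widely than the SW480 arrays, whose range was 0.0596, and replicate 1 was the highest of them. Means were 7.20 ± 0.147 in SW620 and 6.99 ± 0.0299 in SW480 (SD, n = 3 each). The mean over all 6 arrays, 7.10, stood at the 80.6th percentile of all genes and far above the median feature.

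The difference of SLC38A12, SW620 minus SW480, was 0.22 on the log2 scale with a standard error of 0.0920, or 1.16-fold. In limma's moderated test, adjusted over all 14884 genes, it did not pass the threshold of 0.05 (adjusted p = 0.0881). The 95% interval of the fold, without adjustment for the number of genes, was 1.01 to 1.34, so a difference as large as 2-fold lay outside it. Among the 9504 genes with a mean above the median feature, 22.5% rose by that threshold. The size of the difference stood at the 58.1th percentile of all genes. Its value moved with single arrays. It was 0.14 when SW620 replicate 1 was left out (adjusted p = 0.314). When SW620 replicate 2 was left out it was 0.28 and passed (adjusted p = 0.0492, limma).

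SLC7A11-AS1 was dim in both lines, with slightly higher values in SW620. Its levels were 3.89, 3.84 and 4.02 on the SW620 arrays, against 3.64, 3.62 and 3.71 on the SW480 arrays. All 6 arrays lay below the median feature. The lines did not overlap, and the gap of 0.135 between them was smaller than the range within SW620, 0.174, and larger than that within SW480, 0.0831. Means were 3.91 ± 0.0903 in SW620 and 3.66 ± 0.0439 in SW480 (SD, n = 3 each). The mean over all arrays, 3.79, stood at the 26.5th percentile of all genes. At this brightness a level near the background cannot be told from expression, since no detection calls were used, and RMA's background can make a fold look smaller than it is.

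SLC7A11-AS1 rose by 0.26 on the log2 scale (standard error 0.0845), or 1.20-fold, with a 95% interval of 1.05 to 1.36 (adjusted p = 0.0302, limma). Of the 2 genes it was the 1 that passed, and 0 passed in the other direction. Of all genes, 16.0% rose and 19.5% fell by the same threshold, and 35.6% passed in either direction. Among the 5380 genes with a mean below the median feature, 4.72% rose. The call was lost without SW480 replicate 1 (adjusted p = 0.0760, limma), SW480 replicate 2 (0.0965), SW620 replicate 1 (0.0534) or SW620 replicate 3 (0.0998). It held without either remaining array. Where it was lost, the differences were, in that order, 0.25, 0.24, 0.27 and 0.21. Their standard errors were 0.0986, 0.101, 0.0979 and 0.0887, each larger than with all arrays. No array reversed the direction. The size of the difference stood at the 63.5th percentile of all genes.

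**Figure D1:**
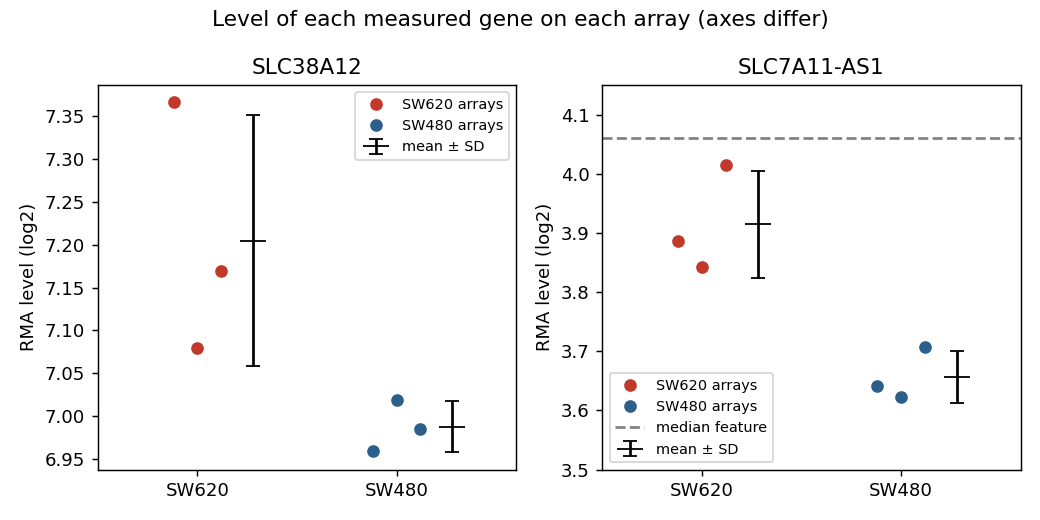
RMA level on the log2 scale (vertical axis, with its own range in each panel) of SLC38A12 and SLC7A11-AS1 on each of the 3 SW620 and 3 SW480 arrays; points are arrays, bars show mean ± SD, and the dashed line, in the SLC7A11-AS1 panel only, is the median feature (4.06). The SW620 arrays lie above the SW480 arrays in both panels, and SLC7A11-AS1 stays below the median feature on all 6.

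On both genes all SW620 arrays lay above all SW480 arrays. The same was true of 22.0% of all genes, and 45.7% of all genes did not overlap in one direction or the other. With 3 arrays against 3, an exact two-sided permutation test of a single gene cannot go below p = 0.1, the value both genes reached. The median of the 2 differences was 0.24, beside 0.0132 over all genes. The median size of a difference over all genes was 0.172, so both differences were somewhat larger than that of a typical gene. Each gene had 1 feature, so no second feature could be set beside it.

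**Figure D2:**
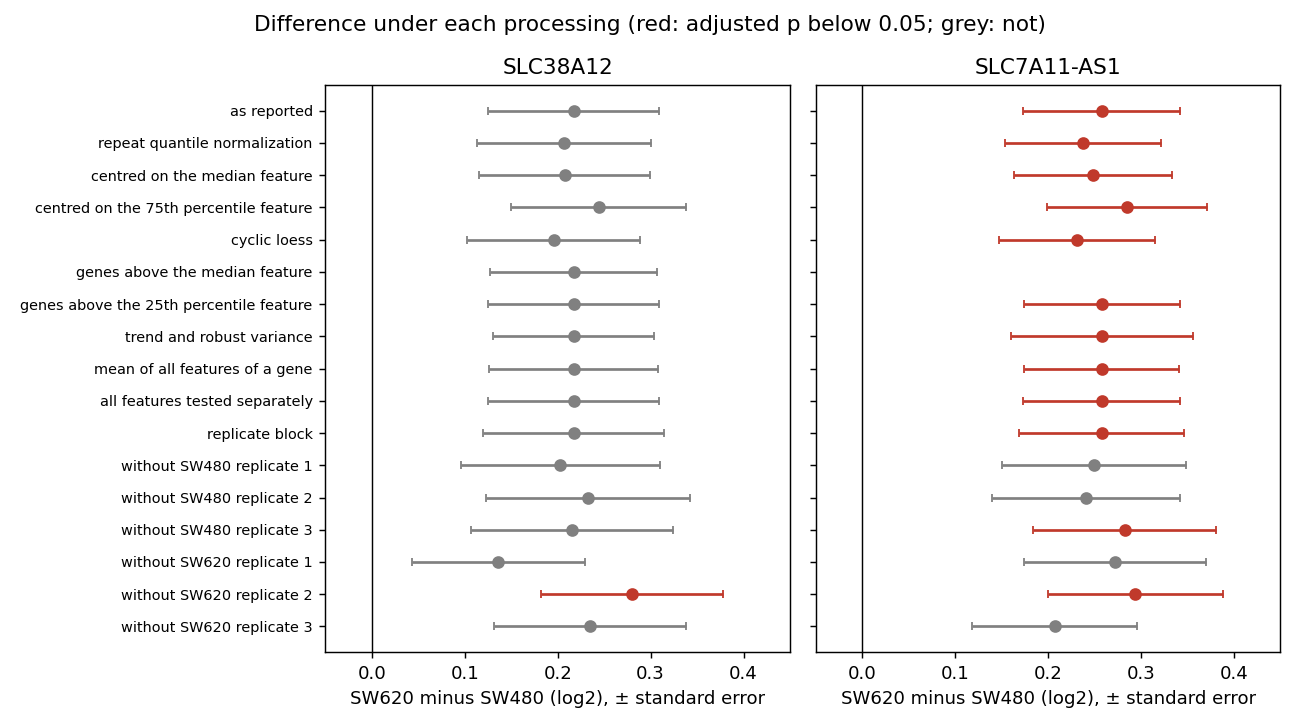
Difference SW620 minus SW480 on the log2 scale (horizontal axis) of SLC38A12 and SLC7A11-AS1 under each processing (vertical axis); points are estimates, bars the standard error of limma's fit, red marks an adjusted p below 0.05 and grey none. All estimates lie above 0, SLC38A12 passes once, without SW620 replicate 2, and SLC7A11-AS1 loses its call without any of 4 single arrays.

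In the gene table SLC7A11-AS1 overlaps 2 other genes, SLC7A11 and the long non-coding RNA LINC00616. SLC7A11 itself was not analysed here, so the level of the antisense RNA cannot be set beside that of the xCT gene. Whether the feature of SLC7A11-AS1 also binds RNA of the overlapping genes was not tested. LINC00616 had 3 features, with differences of -0.0437, 0.0525 and 0.0744, and none passed when all named features were tested (adjusted p from 0.654 to 0.757, limma). Its brightest feature had levels of 3.68, 3.56 and 3.78 in SW620, against 3.52, 3.65 and 3.69 in SW480, and the lines overlapped. Whether the difference of SLC7A11-AS1 departs from that of LINC00616 was not tested.

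Other genes of amino acid handling were counted on lists measured in part, beside the background of 16.0% that rose and 19.5% that fell. Most listed genes lay above the median feature, among them 17 of 21 enzymes, 31 of 32 sensing genes and 15 of 15 regulators. Of the 9504 genes above it, 22.5% rose. That share is from the fit of all genes. In a fit of those 9504 genes alone, 2325 rose and 2739 fell, in each direction a larger share than over all genes. The lists are therefore better read beside these counts. Of 7 measured amino acid and peptide transporters outside the families above, 1 rose and 2 fell. The ornithine carrier SLC25A15 and the serine carrier SFXN1, both mitochondrial, differed by -0.50 and -0.43 on the log2 scale, and the sideroflexin SFXN2 rose by 0.27, a call lost without any single array other than SW480 replicate 2. Of 21 amino acid enzymes, 3 rose and 7 fell. The largest falls were those of ASS1 of arginine synthesis (3.92-fold lower), PHGDH, the entry enzyme of serine synthesis (2.96-fold), the asparagine synthetase ASNS (2.84-fold) and CTH, which makes cysteine (2.09-fold). Those that rose were GLUD1 (1.05), ASL (0.28) and OAT (0.27), chosen for naming after seeing their values, and these 3 became 1 without SW480 replicate 3 or without SW620 replicate 2.

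Of 32 genes of amino acid sensing by mTORC1, the kinase complex that reads amino acid supply, 6 rose and 9 fell. The Rag GTPase RRAGD fell to a mean of 3.62 ± 0.201 in SW620, against 6.74 ± 0.161 in SW480 (SD, n = 3 each). The SW620 level is close to the 25th percentile feature (3.52), so the measured 8.68-fold may be smaller than the true one. SAMTOR, a sensor of S-adenosylmethionine, was 1.78-fold lower in SW620. WDR59 of the GATOR2 complex and the Rag GTPase RRAGB rose 2.35-fold and 1.74-fold. Of 15 stress and transcriptional regulators, 1 rose and 9 fell. The stress factor ATF3, the MYC antagonist MXI1, the kinase EIF2AK3 (PERK) and NFE2L2, the NRF2 factor of antioxidant genes, differed by -0.94, -0.75, -0.64 and -0.57 on the log2 scale, the other feature of MXI1 differed by 0.0404 (adjusted p = 0.799, limma), and TRIB3, named after its value was seen, rose by 0.29 and did not pass without SW480 replicate 3. Of 6 kinases and partner proteins of transporters, among them CLTRN, which the list of other transporters also holds, 3 rose and 1 fell; the ubiquitin ligases planned for that list were not analysed here. CD44, a partner of xCT, was 6.17-fold lower, the kinase SGK2 rose 2.95-fold, and BSG and ARL6IP5 rose by 0.34 and 0.24, the last of these without a call when any single array other than SW620 replicate 3 was left out. SGK2 had a mean of 4.08 in SW480, near the median feature (4.06). ATF3 had a mean of 3.66 in SW620, near the 25th percentile feature (3.52). As for RRAGD, the measured differences of SGK2 and ATF3 may be smaller than the true ones.

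**Figure D3:**
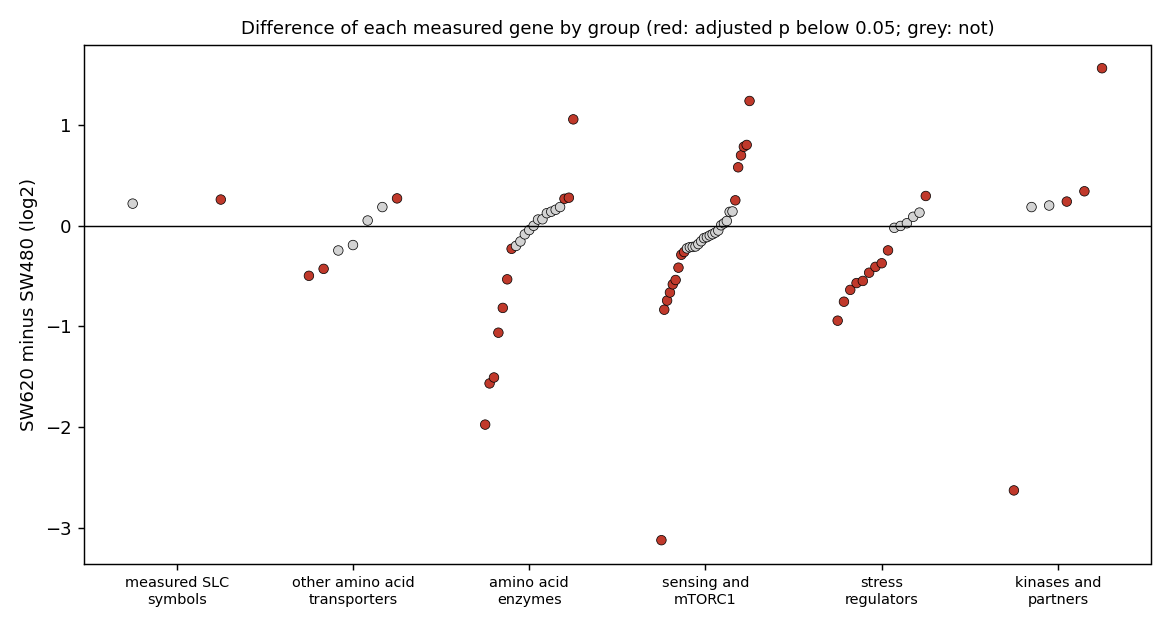
Difference SW620 minus SW480 on the log2 scale (vertical axis) of each measured gene in SLC38A12 and SLC7A11-AS1 (left) and in the 5 lists of amino acid handling; each point is a gene, red at an adjusted p below 0.05 and grey otherwise. The 2 SLC symbols lie at 0.22 and 0.26, and RRAGD is the lowest point, at -3.12.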

How the data were processed

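Total RNA from the spheres was hybridised to 6 arrays, 3 per line. The authors deposited log2 values, for which the submitters' processing notes name Partek and RMA, without versions or settings. The base of the logarithm is unstated and was read as 2 because of the size of the values. The platform annotation named 1 gene for each of 16098 of the 53616 features and 0 features had several symbols; 37518 stayed unnamed here. The 16098 were found in the gene table (GRCh38.p14) by gene ID. The feature with the highest mean stood for each of 779 genes with several features. Dim features were kept.

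The comparison used limma 3.58.1 under R 4.3.3 (functions lmFit and eBayes, SW620 minus SW480, two-sided, 8.39 prior degrees of freedom, Benjamini-Hochberg over 14884 genes, threshold 0.05). On simulated data it recovered 2 of 50 differences of size 0.25, 23 of 50 of size 0.5, 46 of 50 of size 1 and 50 of 50 of size 2. Of 124 calls there, 3 were false. Differences about as small as those of SLC38A12 and SLC7A11-AS1 were thus mostly missed in the simulation. Far more genes passed in the data, 5293 of 14884, so the Benjamini-Hochberg adjustment was stricter in the simulation. Its recovery therefore cannot be read as the recovery in these data. The number of arrays limits the precision. Members and lists were chosen with earlier results of these data known. By the rule for named genes, values per array were planned for members past the threshold by at least 1 on the log2 scale, which none was, and for 6 transporters not analysed here. Both measured members are given in full instead. From each list up to 4 called genes with the largest difference are named. Deviations of same-numbered arrays from their line's mean correlated with r of 0.0209, -0.0107 and -0.00355, so the numbers were not taken to pair arrays. Alternatives were 4 scalings, 2 filters, another variance model, other treatments of features, the replicate block, a stricter threshold, a minimum of 2-fold, and leaving out each array.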

Additional observations from a re-analysis of the deposited data

How the results depend on the processing

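SLC38A12 and SLC7A11-AS1 were higher in SW620 under every alternative that gave a value. Under the 4 scalings SLC38A12 differed by 0.20 to 0.24 (adjusted p = 0.0605 to 0.131, limma) and SLC7A11-AS1 by 0.23 to 0.28 (adjusted p = 0.0201 to 0.0486). With each array left out in turn, SLC38A12 differed by 0.14 to 0.28 (adjusted p = 0.0492 to 0.314) and SLC7A11-AS1 by 0.21 to 0.29 (adjusted p = 0.0337 to 0.0998). The number of called genes then ran from 0 to 2, where 1 had been called. That number was 0 among genes above the median feature, where SLC7A11-AS1 is not tested and so has no value, 0 at an adjusted p below 0.01, which the SLC7A11-AS1 difference of 0.26 does not reach, and 0 with a minimum of 2-fold. With the replicate block the differences were 0.22 (adjusted p = 0.110) and 0.26 (adjusted p = 0.0403), and the block changed neither call. Among the named genes of the lists it changed 1 call, that of ARL6IP5 (adjusted p = 0.0551), which a repeat quantile normalization (adjusted p = 0.0767) and cyclic loess (adjusted p = 0.0786) ended too. The lists were put through the same alternatives after seeing the data; 160 of their counts moved by no more than 1.5 times and 20 were smaller, and 410 values of named genes kept their call and 15 lost it. The named genes counted there were up to 4 called genes per list, with the cell type markers included. GLUD1, ASL, OAT and TRIB3 were not among them. The cause of these changes was not tested. The dimness of SLC7A11-AS1 limits what its value can show.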
